A study of Macaca mulatta with 2 samples.

Results

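The genes described here mark oligodendrocyte precursors and the steps that lead from them to myelin-forming oligodendrocytes. They were *PDGFRA*, *CSPG4*, *PTPRZ1*, *LHFPL3*, *OLIG1*, *OLIG2*, *SOX10*, *GPR17*, *ENPP6* and *BCAS1*, picked by symbol, and all 10 were among the 16684 genes of the expression table. The table holds bulk RNA-seq of optic nerve from wild-type, untreated rhesus macaques (*Macaca mulatta*), with 1 condition and 2 libraries, named Rep1 and Rep2. The nerves were discarded tissue, taken postmortem. The methods text describes a 12-year-old male and the deposited design describes 2 animals, so it cannot be told whether the libraries share an animal. Total RNA was amplified as cDNA with a low-input kit that does not keep the strand. Values are in TPM, the share of a library's reads after correction for gene length. Comparison of levels between genes rests on the gene lengths used, which are not given. With a single condition no group comparison and no test was possible, and the spread between the libraries may be technical. Where a gene's values follow each other, Rep1 comes before Rep2.

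Myelin in the optic nerve is made by oligodendrocytes, which arise from precursor cells that persist in adult white matter. Precursors divide under platelet-derived growth factor through PDGFRA and carry the proteoglycan NG2, the product of *CSPG4*. Under the transcription factors OLIG1, OLIG2 and SOX10 they pass through a short premyelinating stage, marked by GPR17, ENPP6 and BCAS1, before myelin genes such as *MBP* are expressed at high levels.

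The libraries differed in depth and content. A single read weighed 17.2 times as much in Rep1 as in Rep2, worked out from the ratios of the values, and Rep1 listed 6425 genes at 0 against 2082 in Rep2. The read numbers given below are the smallest whole numbers that match a gene's values and are lower bounds. Over the 14693 genes above 0 in at least 1 library, the median difference, Rep1 minus Rep2 on the log2(TPM + 1) scale, was -1.07. A list of 8 retinal genes summed to 3396 TPM in Rep1 against 13.8 in Rep2. A list of 6 neuronal genes summed to 1924 and 47.4 TPM, nearly all of it in Rep1 from *SNAP25*, at 1122 and 4.99 TPM, and *SYT1*, at 769 and 11.8 TPM. Of these 6 genes 3 were higher in Rep1 and 3 lower as deposited, with *NEFL* at 3.63 and 3.65 TPM and *NEFM* at 7.48 and 15.9 TPM. With median-of-ratios size factors, which scale by the median ratio between the libraries, all 6 were higher in Rep1. The part of this RNA in the differences reported here was not tested.

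The lineage markers spanned levels from 0 to 1349 TPM, and a pair of them carried most of the sum. The 10 genes summed to 513 TPM in Rep1 against 2196 in Rep2, or 0.0513% and 0.220% of all TPM. *BCAS1* and *ENPP6* together made up 74.9% of the sum in Rep1 and 89.4% in Rep2. They ranked first and second in both libraries. The classical precursor markers *PDGFRA* and *CSPG4* were at 39.8 TPM or less in each library. These levels come from bulk RNA, in which fewer cells of a type and less RNA per cell cannot be told apart.

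**Figure D1:**
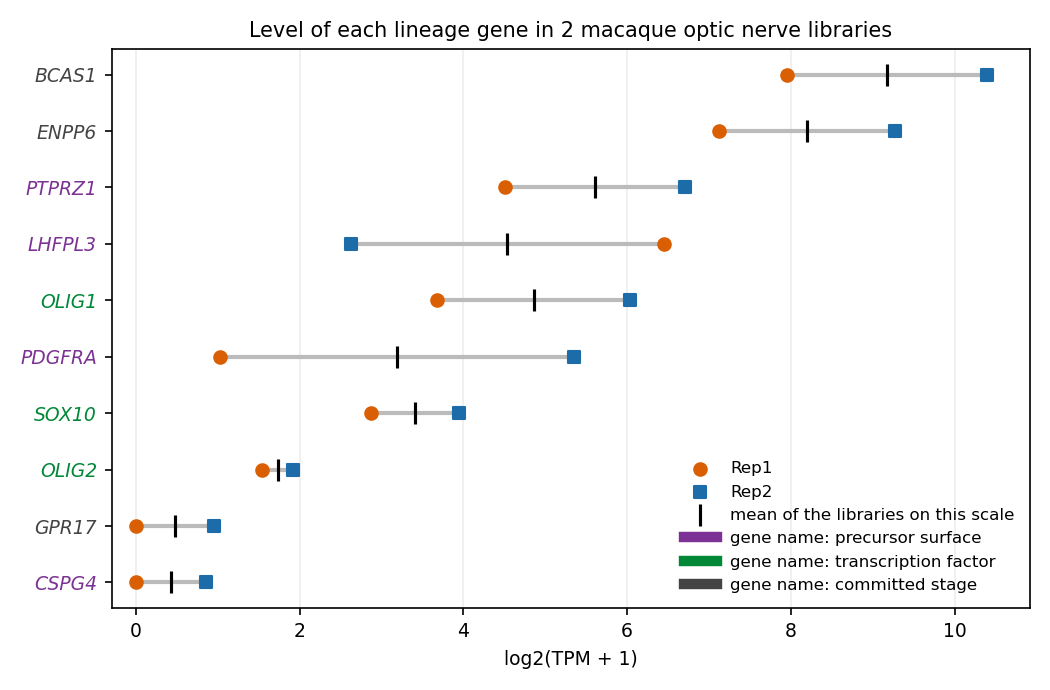
Level of each lineage gene on the log2(TPM + 1) scale, with a circle for Rep1, a square for Rep2 and a bar for their mean, genes ordered by mean TPM. *BCAS1* and *ENPP6* lead in both libraries, *LHFPL3* alone is higher in Rep1, and *GPR17* and *CSPG4* sit at 0 in Rep1.

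*BCAS1*, whose protein is a marker of newly formed, early myelinating oligodendrocytes, was at 247 TPM in Rep1 against 1349 in Rep2, on at least 545 and 51234 reads. Its level was 798 ± 779 TPM (SD, n = 2), at percentile 99.0 of the genes above 0. *ENPP6*, a choline-specific phosphodiesterase of newly forming oligodendrocytes, was at 138 TPM in Rep1 against 616 in Rep2, on at least 33 and 2531 reads. Its level was 377 ± 338 TPM (SD, n = 2), at percentile 97.3. Both genes were therefore lower in Rep1, with differences, Rep1 minus Rep2, of -2.45 for *BCAS1* and -2.15 for *ENPP6* on the log2(TPM + 1) scale. *BCAS1* exceeded *ENPP6* 1.79-fold in Rep1 and 2.19-fold in Rep2. Their mean gap of 0.98 log2 units was 0.603 times the pooled SD of the libraries. That SD includes the shift that both genes share between the libraries, so it does not measure the spread of the gap. *GPR17*, a G protein-coupled receptor of premyelinating cells that is shut off before they mature, was listed at 0 in Rep1 and at 0.940 TPM in Rep2. It thus stood next to last in the order of mean levels, far from the other committed-stage genes. How much of the *BCAS1* and *ENPP6* RNA came from mature oligodendrocytes was not tested.

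*GPR17* lies inside *LIMS2*, which is transcribed from the opposite strand, and 95 of its exonic bases (3.08%) overlap exons of *LIMS2*. *LIMS2* was at 2.62 TPM in Rep1 against 38.1 in Rep2. Without strand, reads from the overlap cannot be assigned to either gene. The committed stage was followed further through 4 other genes. *TNS3*, a tensin expressed as precursors differentiate, was at 12.8 and 78.2 TPM in Rep1 and Rep2, *ITPR2*, a calcium channel gene of newly formed cells, at 22.2 and 95.2 TPM, and *BMP4* at 21.3 and 73.3 TPM. *FYN*, a kinase that acts in myelination, was higher in Rep1, at 328 against 162 TPM.

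Among the surface molecules of precursors, no pattern was shared. *PDGFRA* was at 1.03 TPM in Rep1 against 39.8 in Rep2, on at least 1 and 663 reads, which gave 20.4 ± 27.4 TPM (SD, n = 2). As deposited it had the largest difference of the 10, -4.33 on the log2(TPM + 1) scale. With median-of-ratios size factors the difference of *PDGFRA* was -3.42, and that of *LHFPL3*, at 4.89, was larger. *CSPG4* was listed at 0 in Rep1 and at 0.804 TPM in Rep2, the lowest mean level of the 10. *PTPRZ1*, a receptor phosphatase of precursors and astrocytes, was at 21.7 TPM in Rep1 against 103 in Rep2, or 62.5 ± 57.7 TPM (SD, n = 2). *LHFPL3*, a tetraspan protein used as a precursor marker in primate tissue, went the other way, with 86.2 TPM in Rep1 against 5.16 in Rep2, on at least 141 and 145 reads. It was 16.7-fold higher in Rep1 and accounted for 16.8% of the members' summed TPM there against 0.235% in Rep2.

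The sequence of these genes sets limits on some of those values. Of the 3210 exonic bases of *LHFPL3*, 814 (25.4%) are covered by exons of an uncharacterized antisense RNA, so reads of both would be counted together without strand. In all, 24.7% of the 50-base windows of its longest transcript occur in transcripts of other genes, that RNA and *LHFPL4* among them. For *CSPG4* the share was 7.89%, from 3 uncharacterized loci. *SOX10* had 1.26%, all in *SOX9*, and *PDGFRA* had 0.191%. *PTPRZ1*, *OLIG1*, *OLIG2*, *GPR17*, *ENPP6* and *BCAS1* had no shared window of this length.

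*PDGFRA* is also a gene of fibroblasts, and *CSPG4* of pericytes, so markers of those cells were set beside them. All 8 fibroblast markers were above 0 in both libraries and summed to 1802 TPM in Rep1 against 16121 in Rep2, with *DCN*, a matrix proteoglycan, at 995 and 10505 TPM. Per 1000 TPM of *DCN*, *PDGFRA* stood at 1.04 TPM in Rep1 against 3.78 in Rep2. The 8 pericyte and smooth muscle markers summed to 162 and 783 TPM. Of them 3, *ABCC9*, *NOTCH3* and *HIGD1B*, were listed at 0 in Rep1, as were 30.2% of genes above 0 in at least 1 library. *KCNJ8* of the same list was higher in Rep1, at 17.7 against 0.953 TPM. *PDGFRB*, the receptor of mural cells and fibroblasts, was above *PDGFRA* in both libraries, at 4.16 and 61.3 TPM. How much of the *PDGFRA* and *CSPG4* signal came from precursors was not tested.

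The ligands of these receptors were present. *PDGFA*, the ligand of the precursor receptor, was at 25.7 TPM in Rep1 against 37.8 in Rep2, and *PDGFB* was at 29.4 and 5.61 TPM. *PDGFC* was at 2.33 and 21.8 TPM and *PDGFD* at 3.90 and 28.4 TPM. Only *PDGFB* of these 5 genes, *PDGFRB* included, was higher in Rep1 as deposited, and with median-of-ratios size factors *PDGFA* was higher too. *PTN*, a secreted ligand of PTPRZ1, was at 127 and 734 TPM, and *MDK*, its relative, at 29.6 and 114 TPM. *CNTN1*, a cell-surface partner, was at 8.80 and 8.88 TPM as deposited, with a difference of 1.06 under median-of-ratios size factors, and *TNC*, a matrix partner, was listed at 0 in Rep1 and at 1.48 TPM in Rep2.

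The transcription factors of the lineage were all above 0 in both libraries and differed widely in level. *OLIG1* was at 11.8 TPM in Rep1 against 64.7 in Rep2, or 38.2 ± 37.4 TPM (SD, n = 2), on at least 20 and 1891 reads. *OLIG2*, which specifies the lineage, was at 1.92 and 2.79 TPM, or 2.35 ± 0.616 TPM (SD, n = 2), on at least 1 and 25 reads. *SOX10*, which switches on myelin genes, was at 6.31 and 14.4 TPM, or 10.3 ± 5.71 TPM (SD, n = 2), on at least 7 and 274 reads. In each library the order was *OLIG1*, *SOX10*, *OLIG2*, and the ranges of the latter pair did not overlap, with a gap of 2.95 times their pooled SD. *OLIG1* exceeded *OLIG2* 6.14-fold in Rep1 and 23.2-fold in Rep2.

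*OLIG1* and *OLIG2* are paralogs that lie 40.8 kb apart on the minus strand of chromosome 3. Their most alike stretch, shown to let their coding sequences be compared, is 91 coding bases long, and 81 of these (89.0%) are the same. It lies at chr3:13483250-13483340 in the single exon of *OLIG1* and at chr3:13526473-13526563 in exon 2 of *OLIG2* (Mmul_10, minus strand). Capitals mark bases that are the same in both, from RefSeq transcripts, 5′ to 3′.
OLIG1: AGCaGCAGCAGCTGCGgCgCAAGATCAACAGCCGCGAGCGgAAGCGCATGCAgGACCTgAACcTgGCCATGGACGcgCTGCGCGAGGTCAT
OLIG2: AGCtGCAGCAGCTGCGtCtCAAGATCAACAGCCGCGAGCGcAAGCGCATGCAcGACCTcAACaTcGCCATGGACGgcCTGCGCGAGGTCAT
The longest run that the transcripts share is 21 bases, and no 50-base window is shared. Between *SOX10* and *SOX9* the longest run is 85 bases, and *SOX9*, a factor of astrocytes and precursors, was at 50.2 TPM in Rep1 against 20.4 in Rep2.

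The remaining members lie on chromosomes 5 (*PDGFRA*, 79342993 to 79407696, and *ENPP6*, 181413244 to 181533417), 7 (*CSPG4*, 52809297 to 52849703), 3 (*LHFPL3*, 130621993 to 131197609, and *PTPRZ1*, 148281089 to 148473558), 10 (*SOX10*, 13553621 to 13566203, and *BCAS1*, 89151787 to 89278297) and 12 (*GPR17*, 3239628 to 3246046) of Mmul_10. *OLIG1* spans 13481465 to 13483775 and *OLIG2* 13524548 to 13527904.

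Taking the 10 genes by their order of level, 38 of 45 pairs stood in the same order in both libraries. Of the other 7 pairs, 4 involved *LHFPL3*, which was above *OLIG1*, *PTPRZ1*, *PDGFRA* and *SOX10* in Rep1 and below them in Rep2. *PDGFRA* changed place with *SOX10* and with *OLIG2*, and *GPR17* and *CSPG4* were tied at 0 in Rep1. Of the 9 neighbours in the order, 3 were further apart than 1 pooled SD, namely *ENPP6* above *PTPRZ1*, *SOX10* above *OLIG2* and *OLIG2* above *GPR17*. The other 6 pairs of neighbours did not differ by more than 1 pooled SD. That SD takes in each gene's difference between the libraries, also where both genes shift together. Of these pairs, *BCAS1* above *ENPP6* and *OLIG1* above *PDGFRA* held in both libraries.

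Between the libraries, 9 of the 10 genes were lower in Rep1, as were 75.9% of all genes above 0, and with median-of-ratios size factors 7 were, against 64.8%. As deposited 6 were at least 2-fold lower (*BCAS1*, *ENPP6*, *PTPRZ1*, *OLIG1*, *PDGFRA* and *SOX10*). Of all genes above 0, 51.3% were at least 2-fold lower in Rep1, so a share of 60.0% is near the background. *LHFPL3* was at least 2-fold higher, as were 14.8% of all genes. The members' median difference was -1.61 against -1.07 over all genes. Median-of-ratios size factors correct a log2 shift of -1.19. They left 4 members at least 2-fold lower and 1 higher, against 33.8% and 23.7% of all genes. They put *SOX10* at 0.0031, or practically no difference. *OLIG2* turned to 0.45, less than 2-fold and on at least 1 read in Rep1. With Rep1 scaled to 12 mature oligodendrocyte markers of Rep2, a scaling chosen after the values were seen, 1 member (*PDGFRA*) was at least 2-fold lower and 3 (*LHFPL3*, *OLIG2* and *SOX10*) at least 2-fold higher in Rep1, against 23.0% and 37.1% of all genes. *CSPG4* and *GPR17* were listed at 0 in Rep1, as were 30.2% of all genes. Among the 792 genes from 0.5 to 1 TPM in Rep2, a range picked after the level of these 2 genes was seen, 70.7% were also at 0 there. A value of 0 in Rep1 was therefore common at that level and does not show that the transcripts were missing.

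Measured against a myelin gene of the same library, several members were nearly the same in both libraries. Per 1000 TPM of *MBP*, which encodes myelin basic protein and was at 43722 TPM in Rep1 against 199595 in Rep2, *ENPP6* stood at 3.15 TPM in Rep1 against 3.08 in Rep2. *PTPRZ1* stood at 0.495 and 0.518 TPM. *BCAS1* was at 5.64 and 6.76 TPM and *OLIG1* at 0.269 and 0.324 TPM on the same scale. The other members departed from this pattern. Relative to *MBP*, *PDGFRA* was 8.45-fold higher in Rep2, whereas *SOX10* was 2.004-fold, *OLIG2* 3.14-fold and *LHFPL3* 76.3-fold higher in Rep1. In Rep1 *PDGFRA* and *OLIG2* rested on at least 1 read each, *SOX10* on at least 7 and *LHFPL3* on at least 141. Against genes of other cells, *ENPP6*, *PTPRZ1*, *BCAS1* and *OLIG1* all stood higher in Rep1. Per 1000 TPM of *GFAP*, the astrocyte filament gene, *ENPP6* was 1.47-fold, *PTPRZ1* 1.38-fold, *BCAS1* 1.202-fold and *OLIG1* 1.196-fold higher in Rep1. Relative to *MBP*, *BCAS1* was 1.198-fold and *OLIG1* 1.205-fold higher in Rep2. For *BCAS1* and *OLIG1*, *GFAP* was therefore about as even a denominator as *MBP*. Per 1000 TPM of the fibroblast gene *DCN*, *ENPP6* was 2.36-fold, *PTPRZ1* 2.21-fold, *BCAS1* 1.93-fold and *OLIG1* 1.92-fold higher in Rep1. The denominators were picked with the values known, and with 2 libraries a constant ratio is a description of these libraries.

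**Figure D2:**
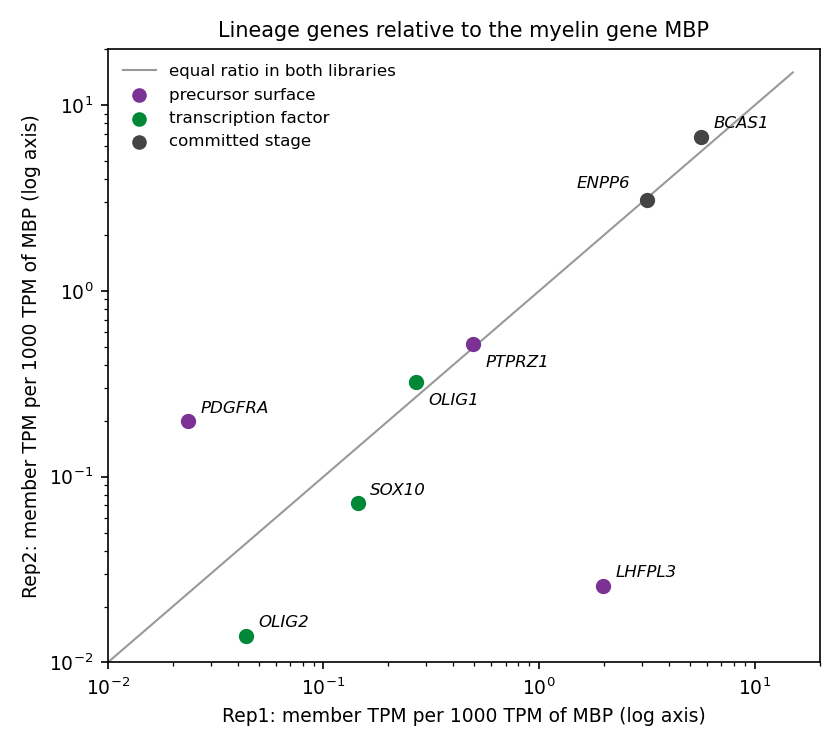
TPM of each lineage gene per 1000 TPM of *MBP* in Rep1 (horizontal, log axis) and Rep2 (vertical, log axis), with a line where both are equal; *CSPG4* and *GPR17*, at 0 in Rep1, are left out. *ENPP6*, *PTPRZ1*, *BCAS1* and *OLIG1* lie near the line, *PDGFRA* above it, and *SOX10*, *OLIG2* and *LHFPL3* below it.

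The 12 mature oligodendrocyte markers were all above 0 in both libraries and lower in Rep1, also with median-of-ratios size factors, with a median ratio of Rep2 to Rep1 of 5.41 and a range from 4.57 in *MBP* to 15.2 in *OPALIN*. The ratios of *PTPRZ1* (4.77), *BCAS1* (5.47) and *OLIG1* (5.50) lay inside that range, and that of *ENPP6* (4.46) just below it. *SOX10* (2.28), *OLIG2* (1.45) and *LHFPL3* (0.0598) were also below it, and *PDGFRA* (38.6) was above. Shifts of this size were not particular to oligodendrocyte markers. On the log2(TPM + 1) scale the median difference was -2.43 for the mature markers, -2.62 for fibroblast and -2.41 for pericyte and smooth muscle markers. It was -1.57 for astrocyte markers and -1.07 for all genes, and positive for the neuronal and retinal lists.

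**Figure D3:**
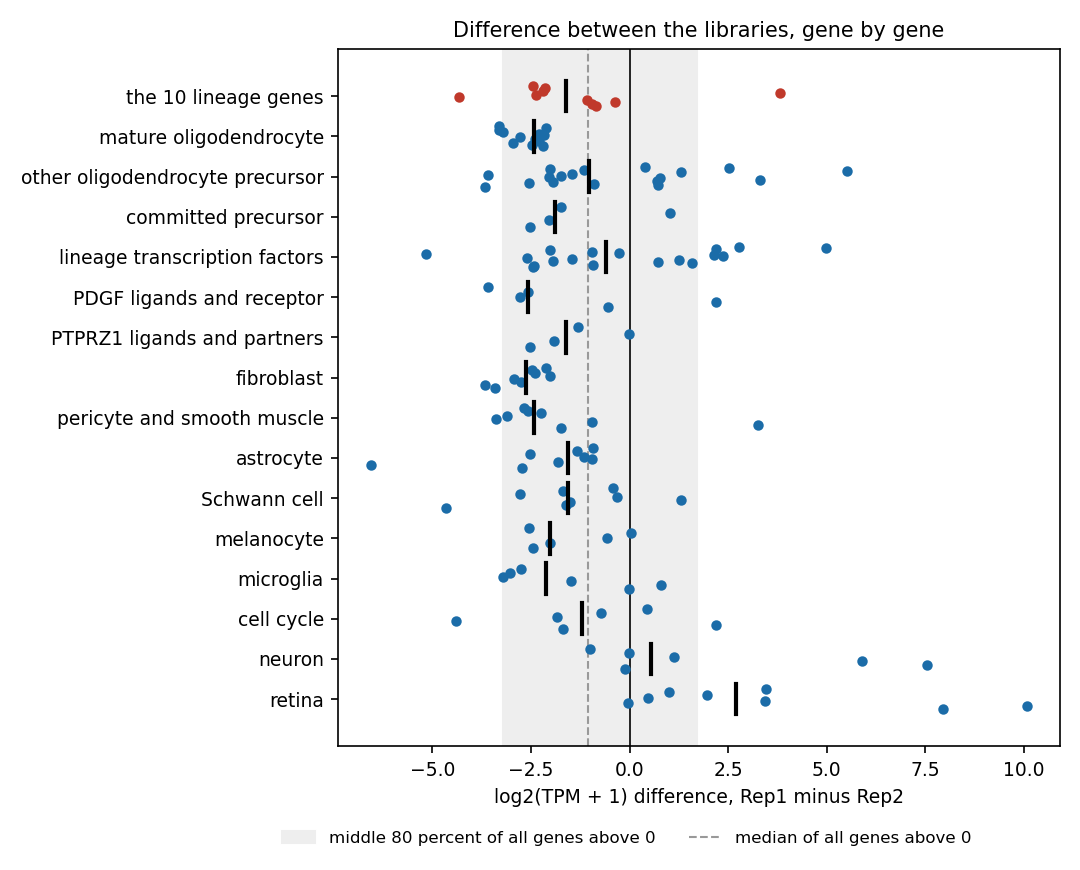
Difference of each gene, Rep1 minus Rep2 on the log2(TPM + 1) scale, for the 10 lineage genes and 15 other lists, with a bar at each list's median, a band for the middle 80 percent of all genes above 0 and a dashed line at their median. The lineage genes spread from -4.33 to 3.82, while mature oligodendrocyte markers lie between -3.32 and -2.13 and retinal genes between -0.043 and 10.1.

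Other genes of precursors also lay on both sides. Of 18 such genes, 9 were at least 2-fold lower in Rep1 and 4 at least 2-fold higher, with a median difference of -1.02. Of all genes, 51.3% were lower and 14.8% higher by this measure, so the count of lower genes and the median are near the background. With median-of-ratios size factors 5 were lower and 8 higher by this measure, against 33.8% and 23.7% of all genes. *VCAN*, a matrix proteoglycan of precursors, was at 29.7 TPM in Rep1 against 178 in Rep2, and *SEMA5A*, an axon guidance protein, at 6.41 and 87.6 TPM. *C1QL1*, a secreted C1q-like protein with the highest level of the list in Rep1, was at 193 and 112 TPM. The 4 genes at least 2-fold higher in Rep1 were *CA10*, *MEGF11*, *MMP16* and *CACNG4*. *CA10*, a carbonic anhydrase-related protein, was at 123 and 1.69 TPM and *MEGF11* at 35.1 and 2.65 TPM. *MMP16*, a membrane-bound metalloproteinase, was at 28.0 and 10.8 TPM and *CACNG4* at 8.18 and 0.595 TPM. *LUZP2* and *PCDH15* were listed at 0 in Rep1. *LHFPL3* was thus not the only precursor gene that stood higher in Rep1. That library also held the higher *SNAP25*, *SYT1* and retinal levels given above, whose part in *LHFPL3* and these genes was not tested.

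Of 18 transcriptional regulators that act in the lineage, 7 were at least 2-fold lower in Rep1 and 7 at least 2-fold higher, or 38.9% each, against 51.3% and 14.8% of all genes. With median-of-ratios size factors 4 were lower and 8 higher, against 33.8% and 23.7%, and the list's median difference turned from -0.60 to 0.54. The lower ones included *MYRF*, *NKX6-2*, *NKX2-2*, *ZNF488*, *SOX8* and *ID4*. *MYRF*, which drives myelin genes, was at 2.68 TPM in Rep1 against 21.5 in Rep2, and *NKX6-2*, a factor of differentiating oligodendrocytes, was at 29.8 and 165 TPM. *NKX2-2*, which acts with OLIG2, reached 4.48 TPM in Rep2 and *ZNF488* 34.9 TPM, whereas Rep1 listed both at 0. *SOX8*, a relative of *SOX10*, was at 3.57 and 16.6 TPM. *ID4*, an inhibitor of differentiation, was at 27.8 and 116 TPM.

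The 7 regulators at least 2-fold higher in Rep1 were *ZEB2*, *CHD7*, *HES1*, *TCF7L2*, *SOX4*, *HES5* and *SOX9*. *ZEB2*, a repressor that acts in myelination, was at 1630 TPM in Rep1 against 317 in Rep2, the highest of the list in Rep1. *CHD7*, a chromatin remodeller, was at 701 and 102 TPM, and *TCF7L2*, a Wnt effector of differentiating cells, at 92.8 and 20.3 TPM. The Notch targets *HES1* and *HES5* differed in level, with 182 and 39.4 TPM for *HES1* and 41.6 and 0.352 TPM for *HES5*. *SOX4* was at 62.5 and 20.1 TPM. The remaining 4 regulators differed less than 2-fold on the log2(TPM + 1) scale, *SOX2* at 80.7 and 154 TPM, *ID2* at 389 and 751 TPM, *SOX5* at 20.1 and 11.8 TPM and *ZNF536* at 10.4 and 12.8 TPM.

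**Figure D4:**
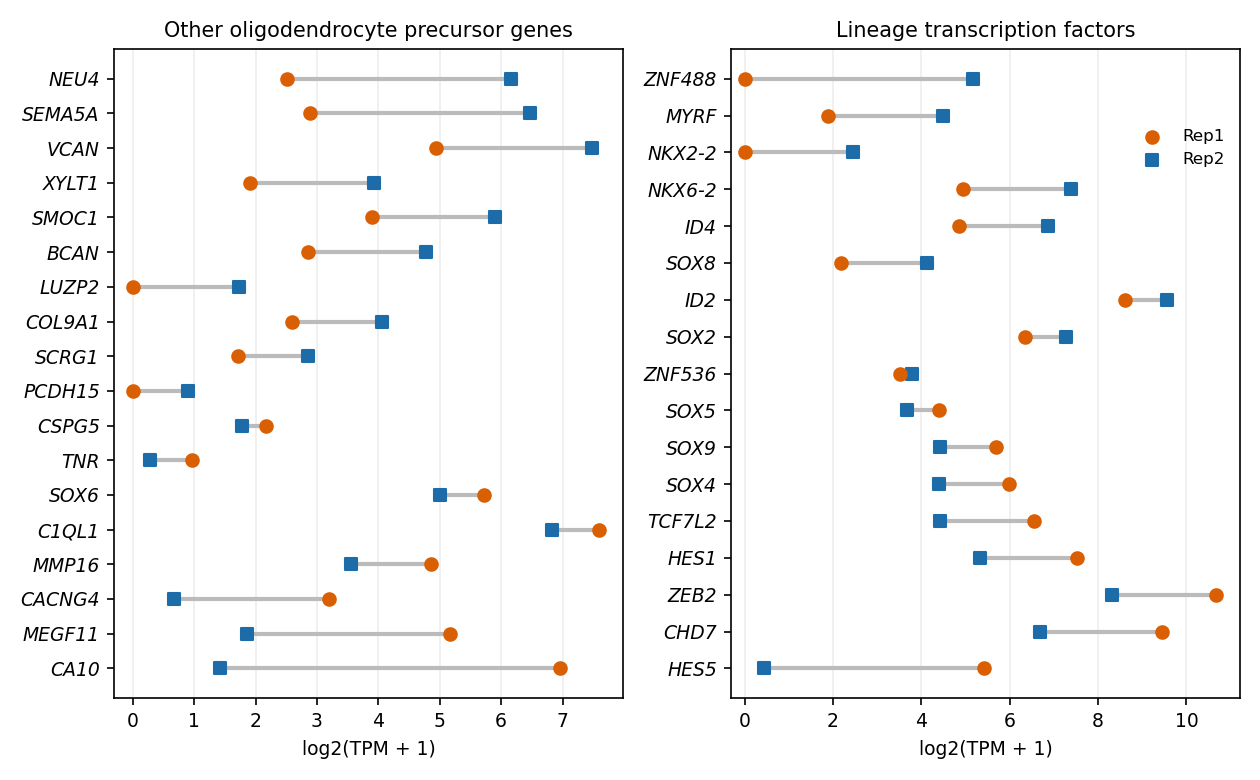
Levels of 18 other precursor genes (left) and the 18 lineage regulators but 1 (right) on the log2(TPM + 1) scale, with a circle for Rep1 and a square for Rep2, sorted by the difference. In the right panel *ZNF488* (34.9 TPM in Rep2, 0 in Rep1) and *HES5* (41.6 TPM in Rep1, 0.352 TPM in Rep2) form the ends of the order.

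Cells other than oligodendrocytes that use *SOX10* or *PTPRZ1* were also looked at. Of the 8 markers of Schwann cells, which make peripheral myelin, *PRX*, *CDH19* and *FOXD3* were listed at 0 in Rep1. The 5 melanocyte markers summed to 1.91 and 19.5 TPM, with *MLANA*, *TYR* and *TYRP1* at 0 in Rep1. The 8 astrocyte markers, all above 0 in both libraries, summed to 896 and 5326 TPM, with *GFAP* at 658 and 4331 TPM. The part of these cells in the *SOX10* and *PTPRZ1* levels was not tested. The 6 microglial markers, which none of the members mark, summed to 194 and 304 TPM. Of 6 cell cycle genes, which dividing precursors express, *MKI67*, *PCNA*, *CCNB1* and *CDK1* were listed at 0 in Rep1 and stood at 2.20, 19.99, 2.58 and 0.655 TPM in Rep2. *TOP2A* was at 8.53 and 1.09 TPM and *MCM2* at 4.59 and 3.10 TPM. Of all genes above 0 in at least 1 library, 30.2% were listed at 0 in Rep1. A 0 there does not show that a transcript was missing.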

How the data were processed

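The authors trimmed reads with Trim Galore 0.6.6, mapped them with STAR 2.7.1a to Mmul_10 under a RefGene annotation, counted them per gene with featureCounts 1.5.3 and deposited TPM for 2 libraries. The gene lengths they used and the handling of strand are not given in the sources used here. Because TPM in a library sum to 1000000, a gene that takes a large share lowers all others. No label ties Rep1 or Rep2 to a sample title, so both served as replicates of the condition. Differences used log2(TPM + 1), which understates changes of low genes. Positions and transcripts came from the RefSeq annotation of Mmul_10, where all 10 members were found. Values were computed in Python 3.11 with pandas 2.3.3 and numpy 2.4.6, and scripts were tested on simulated data. No test was run. Some genes of the lists are counted with their list but not reported here by name. The members and lists were chosen with earlier results of these data known. All members were named, with the leading genes of each list and any count of 5 or fewer. TPM gives no confidence interval per gene.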

Additional observations from a re-analysis of the deposited data

How the results depend on the processing

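With Rep1 scaled to the 12 mature oligodendrocyte markers of Rep2, chosen after seeing the data, the members' median difference turned from -1.61 to 0.080, and 1 member (*PDGFRA*) in place of 6 was at least 2-fold lower in Rep1. The differences of *PTPRZ1*, *ENPP6* and *SOX10* turned to 0.18, 0.28 and 1.19, since this scaling multiplies Rep1 by 5.41, and *SOX10* was at 0.0031 under the median of ratios. Among all genes, 51.3% were at least 2-fold lower and 14.8% higher as deposited, 33.8% and 23.7% under the median of ratios, and 23.0% and 37.1% under the marker scaling. Counting members on fewer than 3 reads in place of 0 raised 2 to 5, though these read numbers are lower bounds and that of *PTPRZ1*, 1 read at 21.7 TPM, is too low to be of use. With a pseudocount of 0.1, or without the 10 most abundant genes, 8 members were at least 2-fold lower in Rep1. Of all genes, 63.5% and 55.3% were lower by this measure under these settings. *LHFPL3* was at least 2-fold higher under each scaling and pseudocount tried, as were 13.9% to 37.1% of all genes. Of the values for single genes under alternatives, 92 stayed within the spread between libraries, 12 moved beyond it, the 2 sign changes of *OLIG2* under these scalings among them, and 4 that were at least 2-fold apart changed sign. A single library always lies within 1 SD of the mean of 2, which says nothing about stability. The depth of Rep1 limits *CSPG4* and *GPR17*, at 0 there, and *PDGFRA* and *OLIG2*, at 1.03 and 1.92 TPM. For *PDGFRA* and *OLIG2* the bound of at least 1 read does not tell how many reads their values rest on.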
